A study of Mus musculus with 6 samples.

Results

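Non-cycling urothelial cells from mouse bladders taken 48 h after cyclophosphamide (CPP) were compared with the same cells from healthy bladders. The cells were selected on their own counts of unique molecular identifiers (UMIs, 1 for each captured mRNA molecule). A cell was kept with over 500 genes, at least 20 UMIs over Krt5, Krt7, Krt8, Krt15, Krt18 and Krt19, and a keratin sum over 2 times that of Col1a1, Col1a2, Col3a1 and Dcn. It also had to hold no UMI of Ptprc or Pecam1 and none of the cycling genes Top2a, Mki67, Birc5 and Ube2c. The levels of these 16 genes are fixed by the choice of cells and were not tested. These conditions kept 20917 of the 40030 barcodes of the 4 acute and healthy libraries, out of 56629 barcodes in the whole series. The 2 healthy libraries gave 5272 and 6914 cells, and the 2 acute libraries gave 3819 and 4912. All animals were wild-type C57BL/6 mice of 8 weeks, and the mucosal layer of the bladder was dissociated with collagenase IV and DNase I and captured on droplets (10x Genomics Chromium). The study used several animals a condition, of both sexes, in 2 biological replicates, but the number and sex behind each library are not given, so that p-values measure the spread between libraries. The methods mention sequencing in batches, but the labels do not tie a library to one, so that batch and group cannot be told apart. The 2 chronic libraries (4 rounds of CPP over 11 days) entered the fit for the spread between libraries, and their levels are given for single genes.

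The urothelium is the epithelium that seals the bladder against urine. It is layered, with Krt5-positive basal cells on the stroma, intermediate cells above them and uroplakin-coated superficial (umbrella) cells facing the lumen. CPP is an alkylating prodrug: one product crosslinks DNA, and another, acrolein, is excreted in urine and damages the urothelium. DNA damage stabilises p53, which drives genes for cell cycle arrest and apoptosis. Type I and type III interferons act through their receptors on a separate set of antiviral genes.

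In the 4 libraries 119 to 315 selected cells were within 5 UMIs of the keratin minimum, and 108 to 161 cells missed it by as little. The selected cells held 37843567 to 66425537 UMIs per library, with a median of 8376 to 11045.5 UMIs per cell. All 10 urothelial markers examined, among them Cdh1, Gata3, Upk1a and Trp63, were detected in every library, and their summed level was 5106 and 4856 CPM (UMIs per 1000000 UMIs) in healthy and 5744 and 4548 CPM in acute cells. The condition on the 4 cycling genes took out 5.45% and 2.04% of otherwise eligible healthy cells and 33.7% and 19.5% of acute cells. The mean difference was 22.8 percentage points (exact two-sided permutation test over libraries, p = 0.333, the smallest that 2 against 2 libraries allow). Markers of other cells were present at low levels. The 8 fibroblast markers, of which Dcn belongs to the rule, summed to 150 and 142 CPM in healthy and 83.6 and 273 CPM in acute libraries, and Sparc among them was at 58.6 and 27.9 CPM and at 23.4 and 114 CPM. The 6 smooth muscle and myofibroblast markers summed to 16.4 and 11.9 CPM and to 8.77 and 102 CPM, so that the second acute library (acute 2) held the most of these transcripts. The 7 macrophage markers reached 16.3 to 27.0 CPM and the 4 endothelial markers 0.996 to 5.17 CPM. The 4 haemoglobin genes summed to 196 and 172 CPM in healthy and to 16.4 and 0.455 CPM in acute libraries, after removal of red cells on a density medium. All these marker levels are shares of all UMIs, with mitochondrial and ribosomal protein genes counted in the total. They therefore read lower than the levels of named genes below, which leave those genes out of the total. The part of this carried-over RNA in the results below was not tested.

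Acute 2 also stood apart in a set of single genes. In 97 genes (66 higher, 31 lower) its level was at least 2-fold beyond all 5 other libraries, the same way in the selected cells and in the cells of the same libraries with under 20 keratin UMIs. The set included Eif4ebp2, Ifit3, Pgk1, Cxcl14 and Hbb-bs. Some members were near 0 in acute 2 alone or in all libraries but acute 2. In the selected cells, as CPM without the scaling named below, Hgs was at 0.062 in acute 2 and 42.1 to 56.2 in the others. Timm8a1 was at 33.2 in acute 2 and 0.733 to 2.04 in the others. The cause was not tested. The count of genes separated at 2-fold is given with and without the 97 genes, and other counts include them unless stated. Levels of named genes are CPM over all genes except mitochondrial and ribosomal protein genes, scaled by the trimmed mean of M-values (TMM), and are given in the order library 1 and library 2.

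Of 13739 genes tested, edgeR's quasi-likelihood test called 0 at a Benjamini-Hochberg adjusted p below 0.05 (0%, smallest adjusted p 0.9997). At an unadjusted p below 0.05 it found 334 genes higher (2.43%) and 67 lower (0.488%) after acute injury. The DESeq2 Wald test on the same sums called 14 genes higher and 0 lower. Both acute libraries lay above both healthy libraries for 1950 genes (14.2%) and below them for 1848 (13.5%). With a fold change of at least 2 added, 330 genes were higher (2.40%) and 85 were lower (0.619%). Without the 97 genes in which acute 2 stood apart, these counts were 305 and 79. Most of the separated genes were scarce transcripts: among the 7915 genes with a mean of at least 10 CPM, 30 were higher (0.379%) and 11 lower (0.139%). With 1 library left out a group has only 1 value to separate, and the total of 415 became 945 without healthy 1, 804 without healthy 2, 1257 without acute 1 and 836 without acute 2. Without acute 1, edgeR called 70 genes, 52 of them among the 97.

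**Figure D1:**
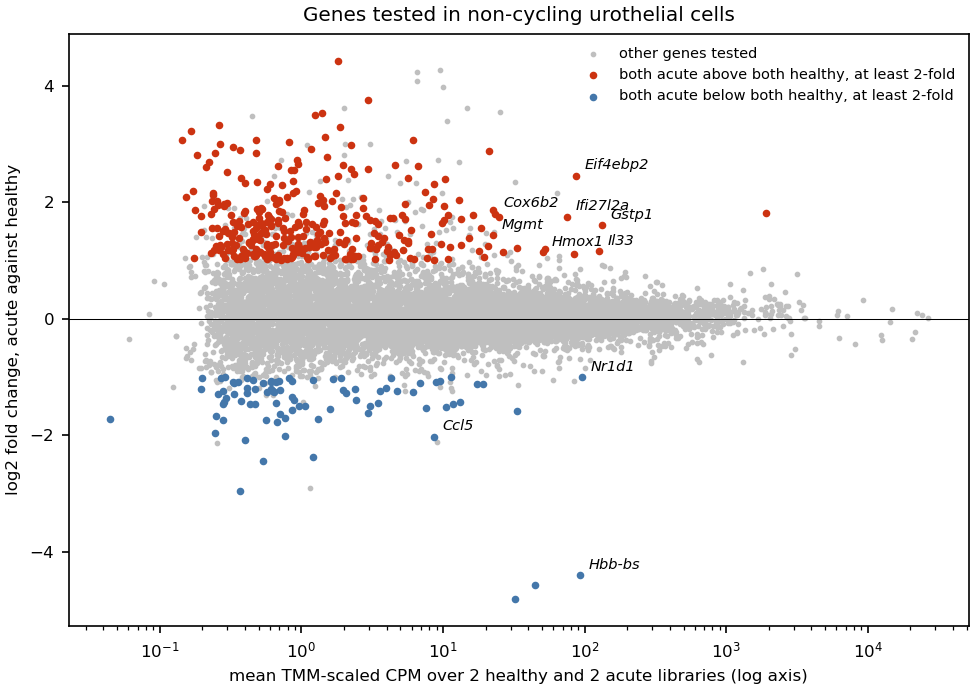
Each point is 1 of the 13739 genes tested, with its mean TMM-scaled CPM over the 4 acute and healthy libraries on a log axis and its log2 fold change (acute against healthy) from edgeR. Red points are the 330 genes in which both acute libraries lay above both healthy ones at 2-fold or more, blue points the 85 in which they lay below, and the largest spread of fold changes is at low CPM.

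Among genes of at least 50 CPM, 26 were higher and 10 lower in both acute libraries at an unadjusted p below 0.05. These counts leave out genes of the cell cycle and sex lists and antisense, predicted and pseudogenes. The number of genes at this level is not given, so the counts carry no share. Over all genes tested, 2.43% were higher and 0.488% lower at this p alone. Those shares carry no CPM minimum, no separation of libraries and no left-out lists, so they are not on the terms of these counts. The largest difference of the higher ones was that of Eif4ebp2, an inhibitor of cap-dependent translation, at 31.8 and 22.1 CPM in healthy and 41.2 and 254 CPM in acute cells (log2 fold change 2.46 ± 0.73 SE). It rested on acute 2, and this gene was among the 97. Ifi27l2a, an interferon-inducible gene, measured 41.5 and 27.2 CPM in healthy and 59.8 and 172 CPM in acute cells (1.76 ± 0.48). Il33, an alarmin cytokine of barrier epithelia, measured 57.0 and 101 CPM in healthy and 245 and 106 CPM in acute cells (1.16 ± 0.42), so that acute 2 lay only just above healthy 2. Gstp1, a glutathione transferase that conjugates electrophiles, measured 68.1 and 62.5 CPM in healthy and 98.0 and 298 CPM in acute cells (1.60 ± 0.50), and its reads may be shared with the near-identical Gstp2. Hmox1, haem oxygenase 1, measured 43.4 and 20.1 CPM in healthy and 81.6 and 58.7 CPM in acute cells (1.14 ± 0.36). In the chronic libraries Gstp1 was at 115 and 193 CPM and Hmox1 at 82.7 and 76.9 CPM, so that Gstp1 stood highest in acute 2 and chronic 2.

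Genes already abundant in healthy urothelium were also among them. Psca, a surface protein of urothelial cells, measured 1650.5 and 3058 CPM in healthy and 4028 and 3984 CPM in acute cells (0.77 ± 0.32). Fam25c measured 1054 and 1559.9 CPM in healthy and 2144 and 2557 CPM in acute cells (0.85 ± 0.24). Acer2, a Golgi ceramidase of the luminal layer, measured 176 and 223 CPM in healthy and 389.8 and 277 CPM in acute cells (0.74 ± 0.25). That the acute libraries did not overlap the healthy ones was a condition for naming these genes. Dynlt1f, a dynein light chain gene with near-identical copies, differed by 0.87 ± 0.33 and Ttc36 by 0.77 ± 0.32 on the log2 scale. The p53 targets Bax and Ccng1 complete the 12 genes of largest difference and are described with their list.

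Of the 10 lower genes, Hbb-bs (beta-globin, made by red cells and not by urothelium) had the largest difference, 196 and 160.0 CPM in healthy and 16.7 and 0.395 CPM in acute cells, and it was among the 97 genes in which acute 2 stood apart. In the cells with under 20 keratin UMIs it was at 425 and 940.0 CPM and 17.5 and 0.365 CPM. The haemoglobin sums above are on another scale, that of all UMIs, and cannot be set beside these levels. Nr1d1, the clock repressor REV-ERB alpha, measured 108 and 148 CPM in healthy and 48.8 and 78.4 CPM in acute cells (-1.0045 ± 0.31). Gnb2l1, which encodes the ribosomal scaffold RACK1, measured 3296 and 3654 CPM in healthy and 2195 and 2303 CPM in acute cells (-0.63 ± 0.20). Eef1b2, a translation elongation factor subunit, measured 3713 and 3524 CPM in healthy and 2513 and 2519 CPM in acute cells (-0.52 ± 0.19). In both of these translation genes the acute libraries lay close together and well below the healthy pair. The differences of Tuba1c (an alpha-tubulin), Galnt16, Fads1 (a fatty acid desaturase), Nisch, Prkab1 (a subunit of the energy sensor AMPK) and Use1 ranged from -0.43 for Use1 to -0.91 for Tuba1c.

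The 14 genes called by DESeq2 were described after their values were seen. The most abundant were Mgmt and Cox6b2. Mgmt (ENSMUSG00000054612, chr7:136894614-137130266 in mm10, protein-coding), the methyltransferase that removes alkyl groups from guanine in DNA, measured 11.4 and 12.9 CPM in healthy and 35.8 and 29.9 CPM in acute cells, from 387, 463, 787 and 908 UMIs (log2 fold change 1.43 ± 0.23, edgeR unadjusted p = 0.000371, DESeq2 adjusted p = 0.000568). Both acute libraries held more than 2 times the level of either healthy library. The chronic libraries were higher again, at 56.9 and 41.6 CPM, and the cells with under 20 keratin UMIs differed the same way, at 13.8 and 15.2 CPM in healthy and 30.7 and 36.7 CPM in acute libraries. Cox6b2, a cytochrome c oxidase subunit best known from testis, measured 8.26 and 12.4 CPM in healthy and 32.9 and 39.3 CPM in acute cells (1.80 ± 0.26, DESeq2 adjusted p = 1.63e-05). Ak1, the adenylate kinase that interconverts adenine nucleotides, measured 3.94 and 5.82 CPM in healthy and 19.035 and 14.7 CPM in acute cells (1.79 ± 0.27). Sncg, gamma-synuclein, measured 1.38 and 1.15 CPM in healthy and 10.4 and 5.33 CPM in acute cells (2.63 ± 0.39). These 3 genes were separated between the groups by wide gaps, and in keratin-poor cells Cox6b2 (116 and 259 CPM in healthy, 381 and 390.2 CPM in acute) and Ak1 (85.0 and 79.2 and 185 and 148 CPM) were more abundant than in the urothelial cells. Ddit4l, an inhibitor of mTOR complex 1, was nearly absent from healthy cells, with 1 and 10 UMIs against 114 and 54 UMIs in acute cells. Gdf15, a secreted stress cytokine and p53 target, measured 0.735 and 0.531 CPM in healthy and 3.32 and 2.40 CPM in acute cells (2.17 ± 0.38). The others included Nol3 (a repressor of apoptosis), Bglap, Kank3, Pqlc3 and the cell cycle genes Cdk1, Cdca3 and 2810417H13Rik. Bglap was at 4.52 and 13.3 CPM in healthy and 79.1 and 21.3 CPM in acute keratin-poor cells. Bglap and these cell cycle genes were more abundant there than in the urothelial cells. Cycling cells were left out of the urothelial cells but not of the keratin-poor cells. For the cell cycle genes this contrast is therefore in part set by the choice of cells. Keratin-poor values are not given for the remaining called genes, and the part of RNA from such cells was not tested.

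p53 targets were mostly higher, by small amounts. Of 30 targets tested, 16 were higher in both acute libraries than in both healthy ones and 2 were lower (Ddb2 and Perp), beside 14.2% and 13.5% of all genes, and 2 of them (Gdf15 and Eda2r) were at least 2-fold higher, beside 2.40%. An unadjusted p below 0.05 was found for 6 members, all higher (beside 2.43% of all genes higher and 0.488% lower). The list's median log2 fold change was 0.28 against 0.01 over all genes, and it stayed between 0.21 and 0.39 when any 1 of the 4 libraries was left out. Bax, the pore-forming killer protein, measured 135 and 149 CPM in healthy and 228 and 247 CPM in acute cells (0.74 ± 0.19, edgeR unadjusted p = 0.00493). Ccng1, cyclin G1, measured 86.0 and 106 CPM in healthy and 235 and 126 CPM in acute cells (0.91 ± 0.31). Cdkn1a, the cyclin-dependent kinase inhibitor p21, measured 253 and 259 CPM in healthy and 488 and 304 CPM in acute cells (0.63 ± 0.27). The acute pair was close for Bax, whereas for Ccng1 and Cdkn1a acute 1 lay well above acute 2. Eda2r, a death receptor gene, measured 0.323 and 0.615 CPM in healthy and 3.55 and 1.48 CPM in acute cells (2.40 ± 0.62), and the phosphatase gene Ptp4a3 84.0 and 100.2 CPM in healthy and 144 and 118 CPM in acute cells (0.51 ± 0.21). Mdm2, which marks p53 for degradation, did not separate, at 57.1 and 55.6 CPM in healthy and 86.7 and 44.4 CPM in acute cells. The keratin-poor cells, from which cycling cells were not left out, showed larger values for several of these genes. There Cdkn1a was at 598 and 465 CPM in healthy and 2559.9 and 961 CPM in acute libraries. Bax was at 241 and 248 CPM in healthy and 734 and 558 CPM in acute libraries. The summed list was at 3322 and 3558 CPM in the healthy urothelial cells and 4206 and 3557 CPM in the acute ones, against 2903 and 2641 CPM and 7065 and 4127 CPM in the keratin-poor cells, where 19 members were higher and 1 was lower in both acute libraries (15.9% and 10.9% of all genes there). Btg2 (709 and 1060.5 CPM in healthy, 732 and 926 CPM in acute cells) and Perp (999.8 and 945 and 902 and 929.8 CPM), abundant members that act against proliferation and in apoptosis, did not share the difference.

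**Figure D2:**
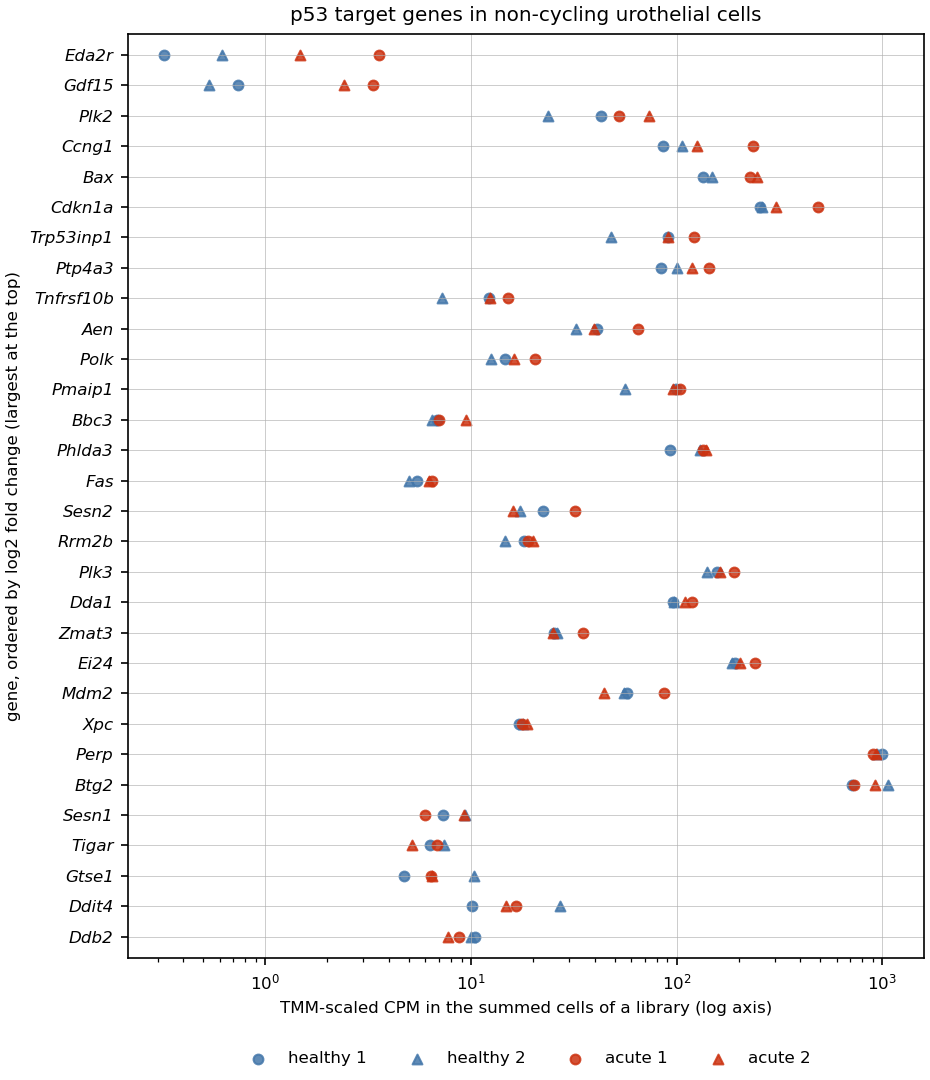
TMM-scaled CPM (log axis) of the 30 p53 targets in the summed non-cycling urothelial cells of each library, ordered by log2 fold change, with circles for library 1 and triangles for library 2. Gdf15 and Eda2r show the widest gaps between healthy (blue) and acute (red), and the abundant genes Btg2 and Perp show none of that size.

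Genes of DNA repair had a median near that of all genes. The share of members higher in both acute libraries was above that of all genes, and the share lower was near it. Of 41 tested, 14 were higher and 5 lower in both acute libraries (14.2% and 13.5% of all genes), with a median of -0.01. Beside Mgmt, the higher ones included genes of replication and damage signalling. Lig1, the replicative ligase, measured 13.6 and 13.4 CPM in healthy and 19.9 and 18.9 CPM in acute cells (0.52 ± 0.19), and the kinase gene Chek2 4.38 and 5.48 CPM in healthy and 6.69 and 8.25 CPM in acute cells (0.60 ± 0.26). The members with the smallest p in the direction of the median were Lig3, a ligase of single-strand break repair (16.6 and 19.3 CPM in healthy and 15.3 and 12.9 CPM in acute cells, -0.35 ± 0.21), and Atr, a damage-sensing kinase (13.9 and 8.42 CPM in healthy and 10.3 and 7.43 CPM in acute cells), and Atr overlapped between the groups.

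Interferon response genes had the largest median of the 49 lists, 0.72. Of 32 tested, 21 were higher in both acute libraries and 1 (Cxcl10) was lower (14.2% and 13.5% of all genes), and 13 were at least 2-fold higher (beside 2.40% of all genes). An unadjusted p below 0.05 was found for 10 members that were higher and for Cxcl10 (2.43% and 0.488% of all genes). Xaf1, a pro-apoptotic interferon target, measured 5.88 and 2.55 CPM in healthy and 11.7 and 20.6 CPM in acute cells (1.94 ± 0.47, edgeR unadjusted p = 0.00406). Ifit1, which binds foreign RNA, measured 2.79 and 0.783 CPM in healthy and 10.1 and 9.07 CPM in acute cells (2.42 ± 0.76). Isg15, a ubiquitin-like modifier, measured 3.09 and 0.643 CPM in healthy and 5.10 and 17.8 CPM in acute cells (2.62 ± 0.82). Both acute libraries were above both healthy ones for each of them, but the 2 healthy libraries differed several-fold from each other. Rtp4, a negative regulator of the response, measured 4.82 and 0.979 CPM in healthy and 13.0 and 15.9 CPM in acute cells (2.32 ± 0.79), and the transcription factor genes Irf9 19.1 and 5.48 CPM in healthy and 28.7 and 29.7 CPM in acute cells (1.25 ± 0.50) and Irf7 9.58 and 2.94 CPM in healthy and 21.7 and 19.4 CPM in acute cells (1.72 ± 0.78). The chemokine gene Cxcl10 went the other way, at 22.5 and 8.56 CPM in healthy and 7.92 and 3.02 CPM in acute cells (-1.52 ± 0.58), and the immunoproteasome gene Psmb8 overlapped, at 68.2 and 30.7 CPM in healthy and 52.6 and 45.4 CPM in acute cells.

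The healthy libraries differed in these genes. Healthy 2 was the lowest of the 4 libraries for each member named above but Cxcl10, and the list median was 1.74 without healthy 1 but 0.42 without healthy 2, 0.74 without acute 1 and 0.71 without acute 2. Of the 32 genes, 30 to 32 were more abundant in the keratin-poor cells than in the urothelial cells of the same library. The list summed to 10480 and 8162 CPM in the healthy and 12690 and 13450 CPM in the acute keratin-poor cells, against 844 and 541 CPM and 905 and 1170 CPM in the urothelial cells. In the keratin-poor cells 23 of the 32 were higher and 1 was lower in both acute libraries, beside 15.9% and 10.9% of all genes there. Without Ifit3, 20 of 31 members were higher in the acute urothelial cells. The part of RNA from such cells in the urothelial values was not tested. In urothelial cells with at least 50 keratin UMIs and no stromal UMI, 26 members were left. Of these, 11 were higher and 2 lower in both acute libraries, beside 12.3% and 14.9% of all genes under this setting. The list median there was 0.77. Within the basal-side and the luminal-side cells, defined below, it was 0.86 and 0.66.

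**Figure D3:**
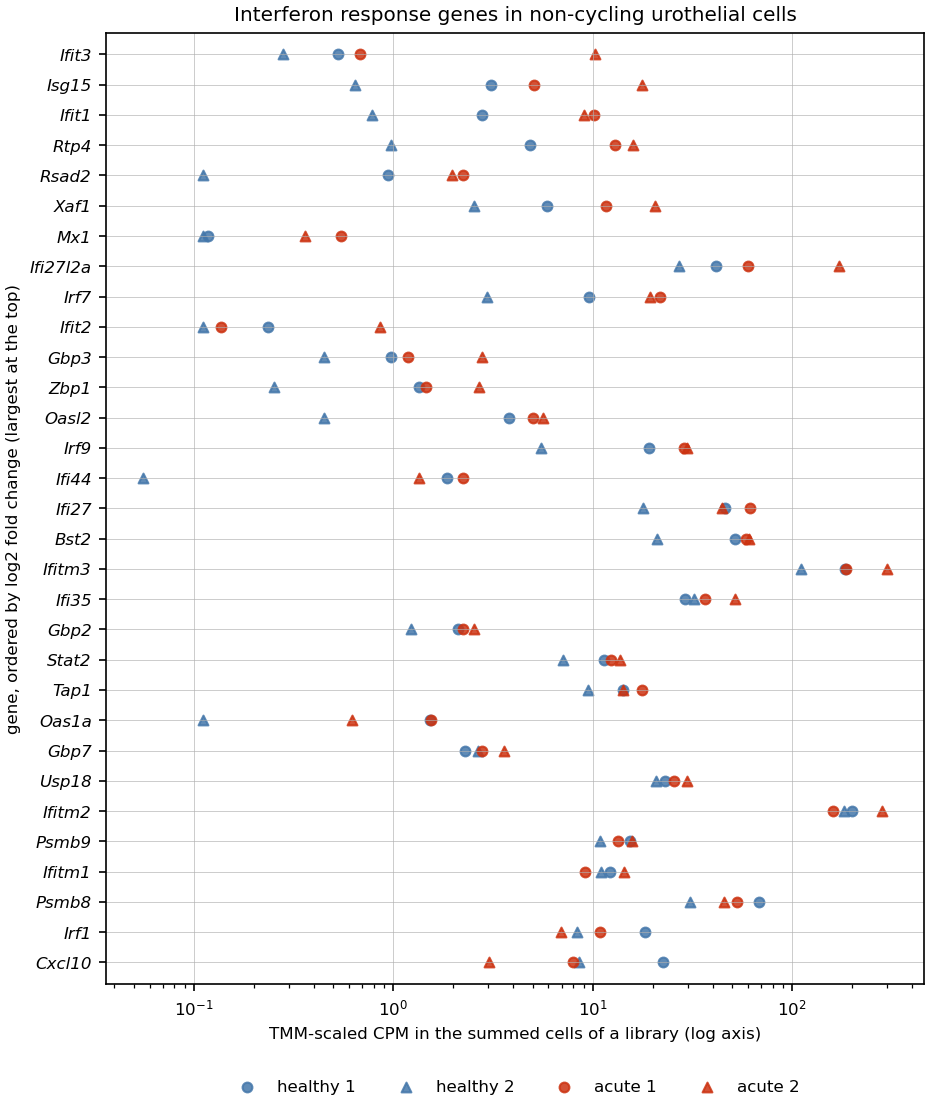
TMM-scaled CPM (log axis) of 31 of the 32 interferon response genes in the summed non-cycling urothelial cells of each library, ordered by log2 fold change, with circles for library 1 and triangles for library 2. Healthy 2 (blue triangles) lies leftmost for the genes at the top, the acute libraries (red) lie to the right of both healthy ones for 20 of those shown, and Cxcl10 at the bottom is reversed.

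The promoters of these genes are shown because the members differed together. Of the 33 listed genes 25 had a promoter in RefSeq (GRCm38.p6), and in 12 the 250 bases before the start held the core of the interferon-stimulated response element, GAAA, any 2 bases and GAAA, on either strand (read on the other strand as TTTC, any 2 bases and TTTC). Of all 32851 promoters of this length, 2.98% held it. The motif was searched after the values were seen, and a match is a description, not a bound site. The matches, in capitals with up to 20 bases on each side and written 5′ to 3′ on the gene's strand, are given for 4 members that were at least 2-fold higher and for Cxcl10, which was lower.
Isg15, chr4:156200855-156200916, minus strand: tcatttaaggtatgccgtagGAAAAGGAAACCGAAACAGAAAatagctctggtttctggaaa
Ifit1, chr19:34640765-34640833, plus strand: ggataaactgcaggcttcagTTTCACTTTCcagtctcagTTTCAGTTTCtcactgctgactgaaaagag
Rsad2, chr12:26456543-26456592, minus strand: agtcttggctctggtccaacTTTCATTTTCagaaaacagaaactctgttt
Gbp3, chr3:142559979-142560034, plus strand: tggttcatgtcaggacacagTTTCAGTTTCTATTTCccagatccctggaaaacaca
Cxcl10, chr5:92349073-92349122, minus strand: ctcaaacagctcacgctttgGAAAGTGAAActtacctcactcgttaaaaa
Rsad2 (viperin) measured 0.941 and 0.112 CPM in healthy and 2.23 and 1.97 CPM in acute cells, and Gbp3, a guanylate-binding protein gene, 0.970 and 0.447 CPM in healthy and 1.18 and 2.79 CPM in acute cells. The core was thus found beside a member that was lower as well as beside the 4 that were higher, and 13 of the 25 promoters did not hold it in this window.

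Detoxifying genes had list medians near that of all genes. Of 34 glutathione and antioxidant genes, 6 were higher and 2 lower in both acute libraries (14.2% and 13.5% of all genes), with a median of 0.07. The 2 at least 2-fold higher (beside 2.40% of all genes) were Gstp1 and Hmox1. Gpx2, the epithelial glutathione peroxidase, measured 95.5 and 187 CPM in healthy and 199 and 293 CPM in acute cells (0.80 ± 0.35). Nfe2l2, which encodes the NRF2 activator of this programme, lay lower in both acute libraries, at 361 and 460.1 CPM in healthy and 310.4 and 284 CPM in acute cells (-0.47 ± 0.25). Of the 29 members with a RefSeq promoter, 8 held the antioxidant response element TGACNNNGC, beside 10.2% of all promoters, and Gstp1 and Hmox1 were not among them. Of the other motifs searched, the ATF4 element TGATGNAA was in 6 of 19 promoters of the ATF4 list (3.45% of all), the sterol element TCACNCCAC in 1 of 16 of the sterol list (1.05%) and the AP-1 site TGANTCA in 0 of 21 of the immediate-early list (6.75%). All motifs were read on both strands and chosen with results of these data known. Of 32 genes of aldehyde and xenobiotic metabolism, 6 were higher and 5 lower, shares near those of all genes, with a median of -0.02. Cyp1b1, a cytochrome P450 of the aryl hydrocarbon response, measured 35.9 and 36.9 CPM in healthy and 23.9 and 13.6 CPM in acute cells (-0.96 ± 0.43), and Abcc4, a drug efflux pump gene, 80.2 and 87.0 CPM in healthy and 79.5 and 45.9 CPM in acute cells (-0.42 ± 0.28). Scarce members went the other way: the efflux pump gene Abcg2 was at 0.206 and 0.280 CPM in healthy and 0.774 and 1.28 CPM in acute cells, and Cyp2b10, which encodes a cytochrome P450 of the kind that activates cyclophosphamide, at 0.176 and 0.364 CPM in healthy and 0.638 and 1.48 CPM in acute cells. These 2 genes were named after their values were seen.

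NF-kappaB and immediate-early genes had the 2 lowest list medians. Of 23 NF-kappaB targets and feedback genes, 6 were lower and 2 higher in both acute libraries (13.5% and 14.2% of all genes), with a median of -0.38, which was -0.03 without healthy 1 and -0.23 to -0.56 without another library. Birc3, an inhibitor of apoptosis, measured 11.1 and 10.4 CPM in healthy and 6.01 and 7.23 CPM in acute cells (-0.70 ± 0.23). Tnfaip2 measured 293 and 423 CPM in healthy and 232 and 249.9 CPM in acute cells (-0.57 ± 0.26), and Nfkb1, which encodes the p105 and p50 subunits, 79.2 and 25.8 CPM in healthy and 35.2 and 24.8 CPM in acute cells. Nfkb1 stood high in healthy 1 alone. Ptgs2, the inducible cyclooxygenase, was one of the 2 higher members, at 12.6 and 9.23 CPM in healthy and 18.7 and 14.0 CPM in acute cells (0.58 ± 0.33). Of 26 immediate-early genes 0 were higher and 6 lower (14.2% and 13.5% of all genes), with a median of -0.29, which was 0.03 without healthy 1 and -0.14 to -0.42 without another library. Fos measured 992 and 2278 CPM in healthy and 916 and 1040.5 CPM in acute cells (-0.74 ± 0.36), Egr1 442 and 509.7 CPM in healthy and 366 and 316 CPM in acute cells (-0.48 ± 0.26), and Zfp36, a decay factor for cytokine mRNAs, 382 and 478 CPM in healthy and 325 and 298 CPM in acute cells (-0.46 ± 0.25).

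Inflammatory mediators were few and mixed. Ccl5 measured 18.9 and 9.01 CPM in healthy and 2.28 and 4.54 CPM in acute cells (-2.02 ± 0.52). Tnf was scarce, at 1.70 and 0.867 CPM in healthy and 0.546 and 0.329 CPM in acute cells (-1.57 ± 0.53), below the 10 CPM used for list members. The paper predicts that macrophages secrete Tnf, and the part of RNA from such cells in these values was not tested. Of 16 chemokine genes 4 were lower and 2 higher in both acute libraries (13.5% and 14.2% of all genes). Ccl5 and Cxcl10 were the 2 at least 2-fold lower (beside 0.619% of all genes). Ccl5 is a product of lymphocytes and in the keratin-poor cells was at 267 and 166 CPM in healthy and 38.2 and 69.4 CPM in acute libraries, lower in both acute libraries there too. The 5 lymphocyte markers summed to 3.54 and 2.69 CPM of all UMIs in healthy and to 1.64 and 3.34 CPM in acute urothelial cells. This scale is not that of the Ccl5 values, and the part of such cells in the Ccl5 values was not tested. Cxcl14, the member with the smallest p in the direction of the median, was at 36.4 and 10.6 CPM in healthy and 8.20 and 202 CPM in acute cells, high in acute 2 alone. Il18, an interleukin-1 family cytokine, measured 3.79 and 21.4 CPM in healthy and 19.7 and 23.7 CPM in acute cells, low in healthy 1 alone.

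Genes of ribosome production leaned lower by small amounts, and most of them did not separate the groups. Of 35 ribosome biogenesis genes 13 were lower (beside 13.5% of all genes) and 1 higher in both acute libraries, none by 2-fold, and the median was -0.13 (-0.06 without healthy 1). Ppan measured 26.2 and 20.3 CPM in healthy and 17.7 and 14.6 CPM in acute cells (-0.53 ± 0.24), and Polr1a, the large subunit of RNA polymerase I, 13.7 and 13.2 CPM in healthy and 11.7 and 8.81 CPM in acute cells (-0.40 ± 0.23). Ribosomal protein genes, left out of the totals above, took 45.5% and 42.0% of UMIs in healthy and 40.9% and 41.0% in acute cells. When they were kept in the fit, 39 of 86 were lower and 2 higher (13.5% and 14.2% of the genes without them), with a median of -0.16. The 13 mitochondrial genes took 3.53% and 3.87% of UMIs in healthy and 3.18% and 2.43% in acute cells. In the fit that kept them, 7 were lower and 0 higher (13.5% and 14.2% of the genes without them), with a median of -0.535. The tables hold no cell above about 10% of mitochondrial UMIs, so that cells above that share are not in these values.

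Lipid and clock genes differed in few members. Of 28 fatty acid genes 7 were lower and 0 higher in both acute libraries (13.5% and 14.2% of all genes), with a median of -0.11, among them Fads1 at 184 and 193 CPM in healthy and 147 and 117 CPM in acute cells (-0.51 ± 0.20). Per1, a clock gene that glucocorticoids also induce, measured 48.6 and 55.2 CPM in healthy and 38.1 and 30.8 CPM in acute cells (-0.59 ± 0.20), and Dbp, a clock output factor, 56.4 and 69.4 CPM in healthy and 40.9 and 40.3 CPM in acute cells (-0.63 ± 0.29). With Nr1d1, these were the 3 of 16 clock genes that lay lower in both acute libraries, beside 13.5% of all genes, and 1, the scarce Hlf, lay higher. The time of day of collection is not given.

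Cell cycle transcripts remained in cells without the 4 cycling genes. Of 44 G2/M genes 23 were higher and 3 lower in both acute libraries (14.2% and 13.5% of all genes), with a median of 0.48, and of 41 S phase genes 22 were higher and 3 lower, with a median of 0.32 (0.60 without healthy 2). In cells with at least 50 keratin UMIs and no stromal UMI, 3 of 27 G2/M genes were higher and 4 lower, with a median of 0.17, and 10 of 30 S phase genes were higher and 2 lower, with a median of 0.39, beside 12.3% and 14.9% of all genes under this setting. Most of these genes were scarce. Cdk1, the mitotic kinase, measured 0.176 and 0.364 CPM in healthy and 2.23 and 1.91 CPM in acute cells (2.91 ± 0.56), and Cks1b, its cofactor, 23.4 and 20.1 CPM in healthy and 38.8 and 29.2 CPM in acute cells (0.64 ± 0.22). With cells holding any UMI of 20 further cycle genes left out as well, an alternative chosen after the data were seen, the medians were 0.12 (31 G2/M genes) and 0.13 (29 S phase genes). With the cycling cells kept they were 2.14 and 1.30. The p53 median was 0.25 and the interferon median 0.73 in the first case, and 0.60 and 0.77 in the second.

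Differentiation and barrier lists had medians near that of all genes, with single exceptions. Of 19 uroplakin and umbrella cell genes 4 were higher and 3 lower in both acute libraries (14.2% and 13.5% of all genes), with a median of 0.05. Of 18 tight junction genes 3 were higher and 1 lower, with a median of 0.05. Cldn1, a claudin of squamous and basal cells, had the smallest p among them, at 17.3 and 18.2 CPM in healthy and 29.1 and 33.6 CPM in acute cells (0.83 ± 0.19, edgeR unadjusted p = 0.00307). Cldn23 measured 107 and 110.2 CPM in healthy and 141 and 145 CPM in acute cells (0.40 ± 0.19), again without overlap. The 15 tested genes of the Sprr and cornified envelope list had a median of 0.36 (0.15 without healthy 1, 0.20 without acute 1), with 4 higher and 2 lower, and of -0.06 in cells with at least 50 keratin UMIs and no stromal UMI. Sprr2b measured 9.55 and 14.8 CPM in healthy and 19.9 and 20.8 CPM in acute cells (0.74 ± 0.24), and Sbsn, suprabasin, 42.1 and 42.8 CPM in healthy and 66.8 and 55.5 CPM in acute cells (0.53 ± 0.19). Sprr2 genes are near-identical copies, so their counts may be split among them. Krt16, a keratin of injured epidermis, was scarce, at 1.15 and 0.531 CPM in healthy and 3.01 and 1.22 CPM in acute cells. Pfn1, profilin, an actin-binding protein, measured 1074 and 1123 CPM in healthy and 1398 and 1685 CPM in acute cells (0.49 ± 0.20).

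The medians of the other lists lay between -0.18 (FGF and IGF axis) and 0.15 (heat shock). In most of them the sign changed when 1 library was left out, as the plot of list medians shows. Of 4 sex-linked genes tested, 0 were higher and 1 was lower in both acute libraries (14.2% and 13.5% of all genes). Y-linked Kdm5d was at 10.0 to 11.4 CPM in the 4 libraries, but this gene alone does not give the mix of sexes.

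**Figure D4:**
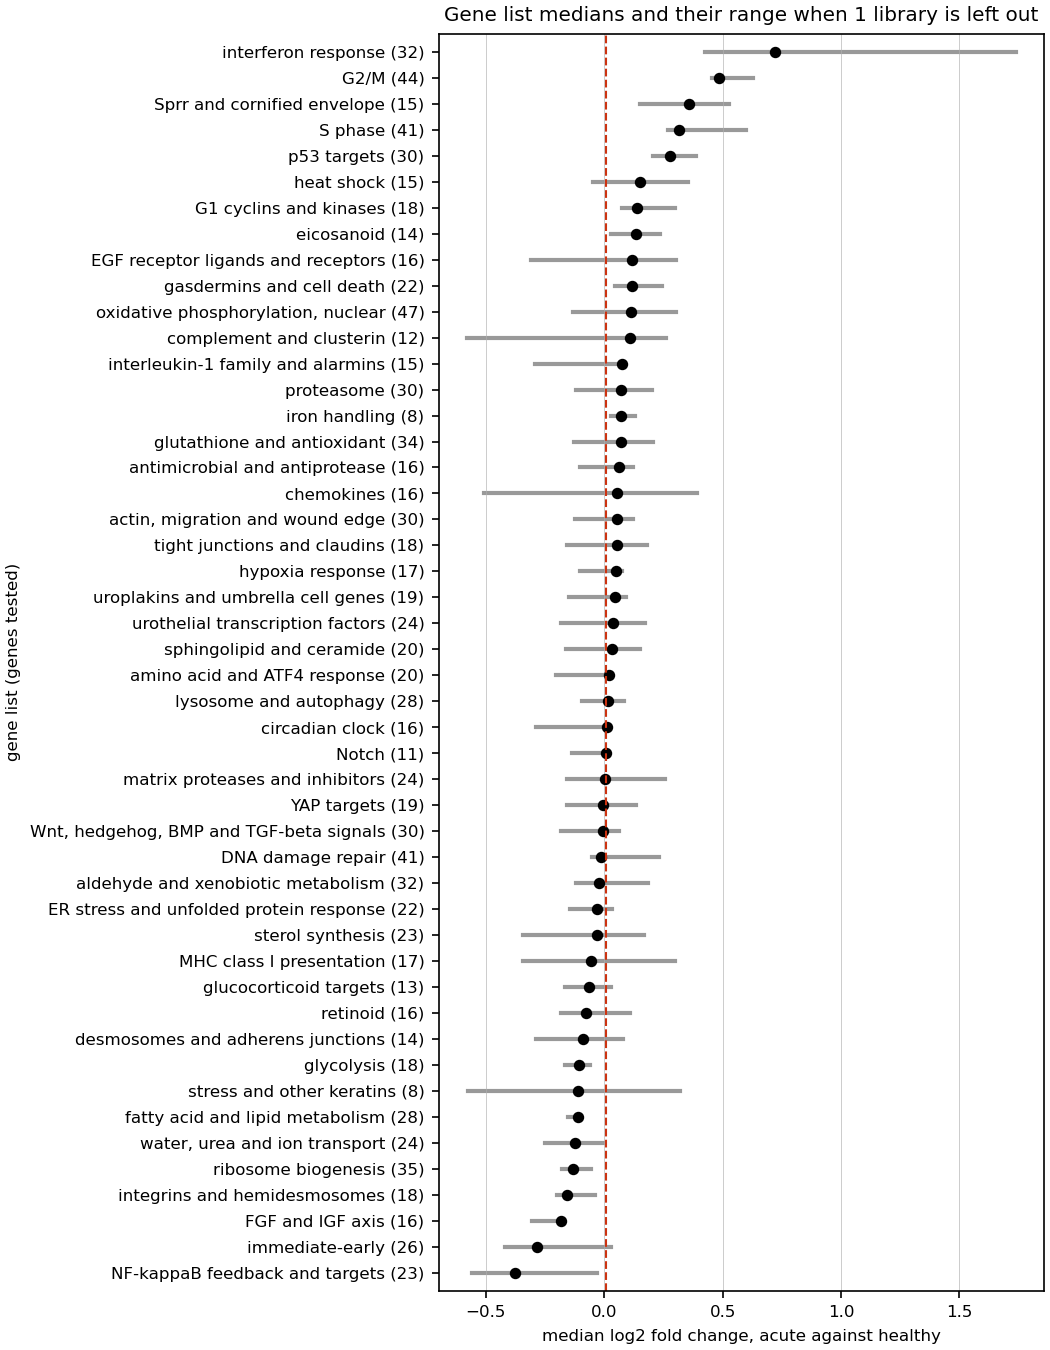
Median log2 fold change (acute against healthy) of each gene list as a black point, with the number of genes tested in parentheses, and a grey bar from the lowest to the highest median when 1 of the 4 acute and healthy libraries is left out. The dashed red line is the median of all 13739 genes, and the interferon, G2/M, S phase, p53 and Sprr lists are the highest, with bars wholly to the right of it.

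The cells were next divided into a basal and a luminal side, to ask whether the acute effect differed between them. A cell was on the basal side when the share of Krt5 and Krt15 in the sum of these and 5 uroplakin genes was above the mean of the 2 healthy medians. This gave 41.0% and 57.2% of healthy and 51.6% and 59.4% of acute cells on the basal side, a difference of 6.41 percentage points that lay within the spread between libraries (exact two-sided permutation test, p = 0.667) and was -1.66 without healthy 1. UMIs were summed for each library and side, and the difference of the acute effects was tested in edgeR with the library as a block. The keratins and uroplakins of the rule and the ratio were not tested.

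The test called 28 of 13226 genes (0.212%) at an adjusted p below 0.05, 7 with the larger effect (more positive) on the basal and 21 on the luminal side. The calls depended on single libraries: without acute 1 it called 9 genes (2 of the 28), without acute 2 it called 5 (all among the 28), without healthy 1 it called 46 (16 of the 28) and without healthy 2 it called 27 (14 of the 28). Acer2 measured 61.4 and 94.8 CPM in healthy and 85.0 and 75.8 CPM in acute basal-side cells, but 229.9 and 344 CPM in healthy and 614 and 483 CPM in acute luminal-side cells (difference -0.88 ± 0.13 log2, SE, edgeR adjusted p = 0.0077). Its higher level after acute injury was thus seen in luminal-side cells, where the acute libraries were above the healthy ones. Cdo1, cysteine dioxygenase, measured 97.5 and 87.5 CPM in healthy and 72.8 and 43.7 CPM in acute cells on the basal side and 22.8 and 26.9 CPM in healthy and 44.9 and 36.7 CPM in acute cells on the luminal side (-1.42 ± 0.17, adjusted p = 0.00205), so that the opposite directions cancelled in the pooled cells. Ccnd2, cyclin D2, measured 358 and 239 CPM in healthy and 439 and 202 CPM in acute cells on the basal side and 289.5 and 182 CPM in healthy and 542 and 240.1 CPM in acute cells on the luminal side (-0.63 ± 0.11). Phldb2 and Gcnt1, a mucin-type glycan enzyme, had the same kind of difference (-0.94 ± 0.12 and -1.15 ± 0.18). Among the other genes called, Cers3 (a ceramide synthase, -0.60 ± 0.11), Elovl6 (a fatty acid elongase, -0.62 ± 0.12), Cds1 (-0.54 ± 0.10) and Gpat4 (-0.65 ± 0.13), both of phospholipid and glyceride synthesis, also had the larger effect on the luminal side. These 4 were named after their values were seen.

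In the other direction, Defb1, an antimicrobial defensin, measured 67.8 and 64.0 CPM in healthy and 70.3 and 98.5 CPM in acute basal-side cells and 144 and 164 CPM in healthy and 115 and 139 CPM in acute luminal-side cells (0.64 ± 0.12, adjusted p = 0.0353). Lypd3 (0.64 ± 0.12) and Padi4 (0.73 ± 0.13), a citrullinating enzyme, were lower in luminal-side cells of both acute libraries. Hbb-bs (4.75 ± 0.66) and Ccl5 (1.58 ± 0.26) were lower on both sides, and further lower on the luminal side, where Ccl5 was at 19.9 and 10.0 CPM in healthy and 1.26 and 2.67 CPM in acute cells.

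**Figure D5:**
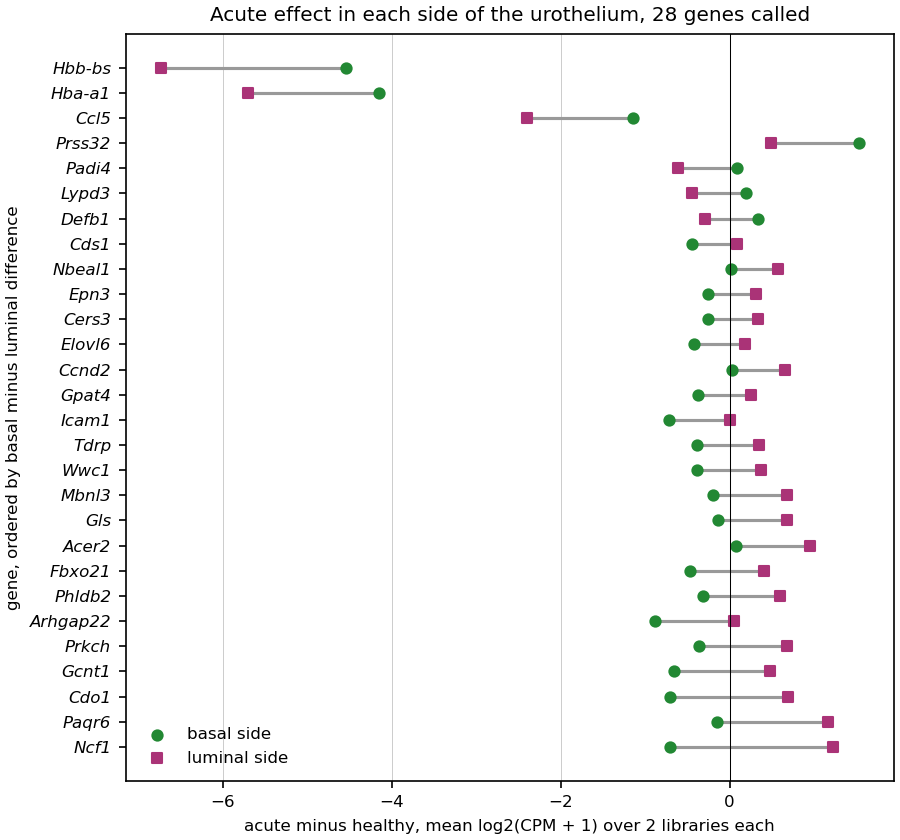
Acute effect (acute minus healthy, mean log2(CPM + 1) over 2 libraries each) on the basal side (green circles) and the luminal side (purple squares) for the 28 genes called, ordered by the tested difference. Most genes, such as Cdo1 and Acer2, lie further right on the luminal side, and Hbb-bs, Hba-a1 and Ccl5 lie left of 0 on both.

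Sterol synthesis genes all had the more positive acute effect on the luminal side. Of 23 tested, 12 had the larger effect on the luminal side at an unadjusted p below 0.05 and 0 on the basal side, beside 4.39% and 3.30% of all genes, and 0 passed the adjusted threshold. The list's median acute effect was -0.26 on the basal and 0.08 on the luminal side (log2(CPM + 1)). Hmgcs1, which makes the substrate of HMG-CoA reductase, measured 124 and 98.5 CPM in healthy and 112 and 75.4 CPM in acute basal-side cells, and 111 and 102 CPM in healthy and 149 and 102 CPM in acute luminal-side cells (-0.48 ± 0.11, adjusted p = 0.0932). Hsd17b7 measured 20.2 and 22.9 CPM in healthy and 18.9 and 11.1 CPM in acute cells on the basal side, and 23.6 and 22.7 CPM in healthy and 33.1 and 18.9 CPM in acute cells on the luminal side (-0.69 ± 0.14, adjusted p = 0.0669). For both genes acute 2 was the lowest of the 4 libraries on the basal side. Without acute 2 the count was 3 and without healthy 1 it was 6, with 18 and 20 of the 23 still larger on the luminal side. The uroplakins themselves were not tested between the sides. Of the 14 other umbrella cell genes tested, 5 had the larger effect on the luminal side at this threshold and 1 on the basal side. Of 32 genes of aldehyde and xenobiotic metabolism, 7 had it on the basal side and 3 on the luminal side. The count of umbrella cell genes on the luminal side was 1 without acute 2, 2 without healthy 2 and 3 without acute 1. The aldehyde and xenobiotic count on the basal side was 3 without healthy 2. These lists were singled out after their values were seen, and others leaned as much. Of 10 Notch genes 4 had the larger effect on the basal side and 0 on the luminal side. Of 22 gasdermin and cell death genes 6 had it on the luminal side and 1 on the basal side. In the pooled cells the sterol list had a median of -0.03.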

How the data were processed

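Libraries were made from droplets with 3′ chemistry, and the submitters' processing notes name Cell Ranger and the mm10 build. The deposited tables hold whole-number UMI counts per gene and cell, with no normalization by the authors, and 14450 genes were listed in all 6 tables. The tables hold no cell above about 10% of mitochondrial UMIs. No doublet caller was run here.

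UMIs of the selected cells were summed per library. Mitochondrial and ribosomal protein genes were left out, low counts were filtered with filterByExpr, and edgeR 4.0.16 fitted all 6 libraries (TMM, quasi-likelihood test, Benjamini-Hochberg adjustment). SE is the size of the log2 fold change divided by the square root of F. DESeq2 1.42.0 was the other tool. On simulated sums of 13620 genes for the acute against healthy test, 200 of them changed 4-fold, edgeR recovered 92.5% of the changed genes with 15 unchanged genes called. The changed genes were drawn only from genes above a minimum mean CPM, so the scarcest were not among them. The spread was the one edgeR estimated for each gene from these libraries. In the libraries themselves edgeR called 0 genes. Sncg and Ddit4l, with DESeq2 log2 fold changes of 2.63 and 4.47, were scarce. The recovered share covers 4-fold changes above that minimum only. It does not give the power of the test for scarce genes or smaller changes. Percentages of cells carry counting error and the spread between libraries.

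Genes named were the 12 largest differences per direction at 50 CPM or more, with the libraries separated and an unadjusted p below 0.05, and from each of the 49 lists the 2 members of smallest p in the direction of the median at 10 CPM or more, beside members that a count turned on and, between sides, the 5 of smallest p per direction. Members and lists were chosen with earlier results of these data known. Keratin-poor cells are the cells with over 500 genes and under 20 keratin UMIs. No other condition of the rule was applied to them, so cycling cells were not left out. Gene positions are from GENCODE M21 (mm10). Some genes are not reported here.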

Additional observations from a re-analysis of the deposited data

Results flagged for a closer look

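For 10 genes the acute effect differed between the basal and the luminal side of the urothelium by the edgeR test of the difference itself, with the library as a block. The acute effect was the more positive on the basal side for Hbb-bs (4.75 on the log2 scale), Ccl5 (1.58), Padi4 (0.73), Lypd3 (0.64) and Defb1 (0.64). It was the more positive on the luminal side for Cdo1 (-1.42), Gcnt1 (-1.15), Phldb2 (-0.94), Acer2 (-0.88) and Ccnd2 (-0.63). These were the 5 genes of smallest p in each direction among the 28 called. The 4 haemoglobin genes are products of red cells. Their summed level, as a share of all UMIs, was 196 and 172 CPM in healthy and 16.4 and 0.455 CPM in acute libraries. The part of carried-over RNA in the values of Hbb-bs was not tested.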

How the results depend on the processing

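The count of genes at an adjusted p below 0.05 was 0 under every setting run but 3: DESeq2 called 14 genes, in edgeR 1 gene passed with the cycling cells kept, and 70 passed without acute 1 (0 to 70 with 1 library left out), of which 52 were among the 97 genes in which acute 2 stood apart. The 415 genes separated at 2-fold became 699 with the cycling cells kept, 256 with at least 50 keratin UMIs and no stromal UMI, 183 with cells of the S phase and G2/M lists left out (155 cells of healthy 1 remained), and 462 to 1257 with 1 library left out. The 28 genes differing between the sides became 13 with the middle of the ratio left out, 8 in the 4 acute and healthy libraries alone, and 5 to 46 with 1 library left out. The basal-side difference of 6.41 percentage points ranged from -1.66 (without healthy 1) to 14.5, and the cycling difference of 22.8 points from 15.7 to 29.9. The latter was 14.8 with at least 2 UMIs required and 14.4 with cells thinned to 3000 UMIs. Of the genes whose fold change is given, 1 that was separated between the groups, Sprr2b, changed sign, to -0.19 with cells of the S phase and G2/M lists left out. The cause of these shifts was not tested.

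The labels number the libraries within each group but do not say that a number is shared, so the replicate block is given here only. Deviations of same-numbered libraries correlated at 0.421 between acute and healthy and at -0.339 and -0.469 with chronic. With the replicate block 413 genes were separated at 2-fold and 0 were called. With the chronic numbers crossed, 427 were separated and 0 called, and 633 had an unadjusted p below 0.05 against 401 without a block. The crossed block, the 20 further cycle genes, the removal of the 97 genes and the left-out libraries for the sides were added after seeing the data. With 2 libraries a group, exact permutation cannot go below 0.333, and genes under a few CPM rest on few UMIs.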
